A study of Mus musculus with 9 samples.

Results

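Simple epithelia carry a small set of keratins that other tissues mostly lack. The abundance of these keratins in a line labelled as endothelial is the subject here. The members are 7 genes of the 54532 listed: Krt8, Krt18, Krt7 and Krt19, the keratins of single-layered epithelia, Epcam and Cdh1, adhesion molecules of the epithelial cell surface, and Vim, the filament gene of mesenchymal and endothelial cells. They were picked by name, and they were picked because Krt8, Krt18 and Krt19 are high in these cells, so that their levels are given below as a description without a test. Of the 7 genes, 5 reached 1 FPKM (fragments scaled to gene length and library size) in at least 3 libraries and were tested between light doses. Krt7 and Cdh1 did not.

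B.END3 is known as a mouse brain endothelial line transformed with the polyoma virus middle T antigen. The labels describe it as brain microvessel endothelial cells of strain C57BL/6. However, 14 of 21 listed endothelial genes stayed below 1 FPKM in each library, as described below. RNA of 9 libraries was sequenced, 3 from untreated cells (Ctrl), 3 from cells at a light dose of 10 J/cm2 (Ep1) and 3 from cells at 20 J/cm2 (Ep2). Treated monolayers stood for 90 min in 300 µg/mL porfimer sodium, a porphyrin photosensitizer that forms reactive oxygen species in red light, and then received 635 nm laser light at 100 mW/cm2. No library of light alone or of porfimer sodium alone was used, so that the drug and the light cannot be told apart in comparisons with Ctrl. Ep1 and Ep2 share the drug dose, the incubation, the wavelength and the power, and differ in the stated light dose. The time from irradiation to lysis is not given in the sources used here. The protocol text calls the cells rat, while the organism field says mouse. Every library held between 16240688 and 19509225 fragments on genes. The libraries are of 1 line, and nothing says whether the 3 of a group came from separate cultures, so that p-values measure the spread between these libraries, which may be technical.

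Keratins form filaments as obligate pairs of a type II chain and a type I chain. Krt8 and Krt7 encode type II chains, Krt18 and Krt19 encode type I chains, and a cell of a simple epithelium such as liver, gut or kidney tubule keeps its filaments from the partners KRT8 and KRT18, to which KRT19 or KRT7 is added in ducts. The filaments are tied to desmosomes by desmoplakin and the plakophilins and to other parts of the cytoskeleton by plectin. Vimentin assembles with itself and is the usual filament protein of endothelium.

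On the genome build that matches the listed coordinates, GRCm38, Krt8 (ENSMUSG00000049382) lies at chr15:101996698-102004482 on the minus strand and Krt18 (ENSMUSG00000023043) at chr15:102028180-102032027 on the plus strand. The pair is 23697 bases apart with 0 listed genes between them, although almost all type I keratins lie on chromosome 11. Krt7 (ENSMUSG00000023039), at chr15:101411043-101430313 on the plus strand, is 566384 bases from Krt8, and 42 genes lie between, 23 of them keratins. Krt19 (ENSMUSG00000020911) lies at chr11:100140810-100148665 on the minus strand. The remaining members are Epcam (ENSMUSG00000045394) at chr17:87635979-87651106, Cdh1 (ENSMUSG00000000303) at chr8:106603351-106670246 and Vim (ENSMUSG00000026728) at chr2:13573927-13582826, each on the plus strand.

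The promoters of 3 keratins on chromosome 15 are shown because they cover the range of the family in these cells: Krt8, abundant and without a call against untreated cells, its neighbour Krt18, abundant and higher at 20 J/cm2, and Krt7, without a single fragment. Each run is 270 bases, of which the last 20 follow the start site that RefSeq gives on GRCm38.p6, and is written 5′ to 3′ on the strand of the gene. Capitals mark the letters of 4 motifs searched on both strands, TATAAA (the TATA box), GGGCGG (the GC box of SP1), TGANTCA (AP-1) and CCGGAA (ETS).
Krt8, chr15:102004323-102004592, minus strand: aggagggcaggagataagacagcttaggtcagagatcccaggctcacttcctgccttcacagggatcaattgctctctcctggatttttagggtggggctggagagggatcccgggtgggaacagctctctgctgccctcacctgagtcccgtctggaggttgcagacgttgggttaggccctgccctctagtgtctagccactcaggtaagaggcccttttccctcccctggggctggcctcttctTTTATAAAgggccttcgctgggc
Krt18, chr15:102027966-102028235, plus strand: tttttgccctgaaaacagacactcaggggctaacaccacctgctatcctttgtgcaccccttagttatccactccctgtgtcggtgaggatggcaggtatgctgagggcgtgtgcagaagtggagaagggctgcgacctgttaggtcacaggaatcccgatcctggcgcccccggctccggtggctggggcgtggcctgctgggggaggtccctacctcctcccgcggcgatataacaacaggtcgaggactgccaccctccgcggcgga
Krt7, chr15:101412153-101412422, plus strand: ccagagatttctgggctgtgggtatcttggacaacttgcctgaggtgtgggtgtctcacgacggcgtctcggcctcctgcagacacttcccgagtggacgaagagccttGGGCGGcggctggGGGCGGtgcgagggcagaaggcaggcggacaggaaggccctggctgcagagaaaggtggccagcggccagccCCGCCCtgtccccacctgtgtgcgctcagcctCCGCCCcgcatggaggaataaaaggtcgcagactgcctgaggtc
In the Krt8 window, TATAAA was found on both strands in overlapping positions, and the capitals of that run end past the RefSeq start. The Krt18 window held 0 matches to the 4 motifs. The Krt7 window held 4 GC boxes, which did not overlap one another, and 65.9% of its bases were G or C, against 58.1% for Krt8 and 61.9% for Krt18. Over 32851 RefSeq promoters of the same length, 12.9% held TATAAA, 34.1% the GC box, 7.23% the AP-1 letters and 13.7% the ETS letters. RefSeq promoters were at hand for 5 of the 7 members. In the windows of the others, Epcam had 1 GC box, and Vim had 1 TATAAA with its first base 32 bases before the start and 1 ETS match. Krt19 and Cdh1 were not matched.

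Vim and Krt8 were among the most abundant genes of the cells. Ordered by mean FPKM over all libraries, Vim ranked 42 of 54532 at 696 FPKM, Krt8 ranked 52 at 628 FPKM, Krt18 ranked 163 at 262 FPKM and Krt19 ranked 207 at 203 FPKM. Epcam followed at rank 11070 with 1.13 FPKM, and Cdh1 at rank 19496 with 0.0434 FPKM. In Ctrl and in Ep1 the ranges of neighbours in this order did not overlap. In Ctrl the gap between Vim and Krt8 was small, since the lowest Vim library had 658.3 FPKM and the highest Krt8 library 658.0 FPKM. In Ep2 the ranges of Vim and Krt8 overlapped, and so did those of Krt18 and Krt19, although Krt18 stayed above Krt19 within each of the 9 libraries.

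**Figure D1:**
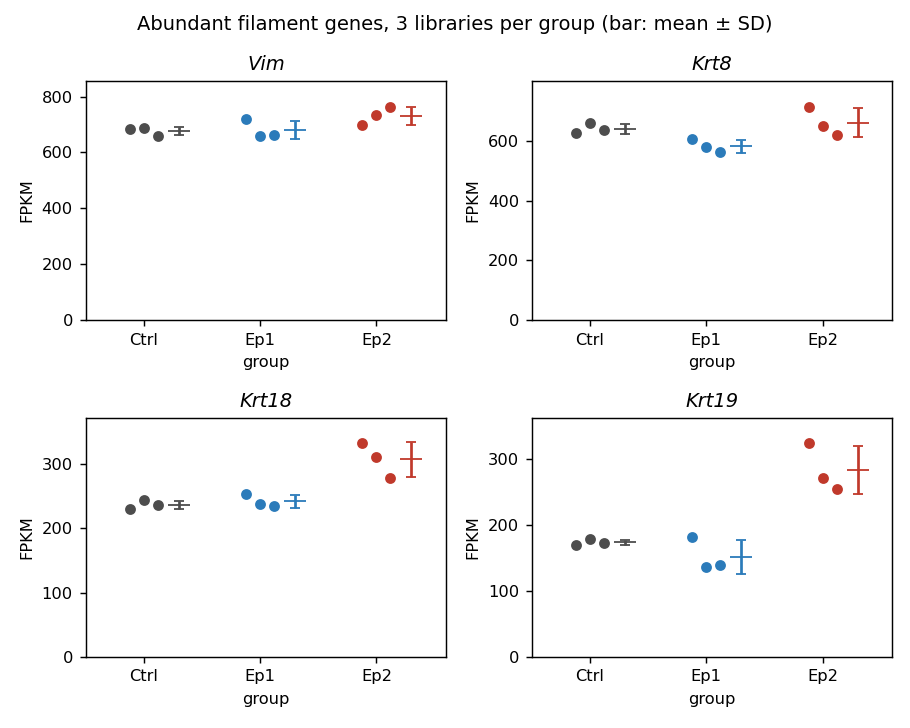
FPKM (vertical axes, from 0) of Vim, Krt8, Krt18 and Krt19 in each library of Ctrl, Ep1 and Ep2, with points for libraries and bars for the mean ± SD of 3 libraries. The 3 Ep2 libraries of Krt19, at 255 to 324 FPKM, and of Krt18, at 279 to 332 FPKM, stand above the 6 other libraries, while those of Krt8 overlap with Ctrl.

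Krt8, the type II chain, showed 628, 658 and 635 FPKM in Ctrl, 606, 578 and 562 in Ep1, and 714, 649 and 619 in Ep2. The Ep1 libraries all lay below the Ctrl libraries, and the Ep2 libraries spread across the Ctrl range and beyond it on both sides. The log2 fold change of Krt8, on the log2(FPKM + 1) scale as throughout, was −0.14 with an SE of 0.055 in Ep1 against Ctrl (limma, adjusted p = 0.132), and 0.04 with an SE of 0.055 in Ep2 against Ctrl (limma, adjusted p = 0.53). Neither passed the threshold of 0.05. Ep2 lay 0.18 above Ep1 (SE 0.055, limma, adjusted p = 0.024). This call was lost without library Ep1 2 (adjusted p = 0.0664) and without library Ep1 3 (adjusted p = 0.0898).

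Krt18, the type I partner, rose at the higher dose. Its level was 231, 243 and 237 FPKM in Ctrl, 254, 237 and 235 in Ep1, and 332, 311 and 279 in Ep2. Ctrl and Ep1 shared a range, and the Ep2 libraries stood above both. The log2 fold change was 0.37 with an SE of 0.063 in Ep2 against Ctrl (limma, adjusted p = 0.000887) and 0.34 in Ep2 against Ep1 (limma, adjusted p = 0.002). For Ep1 against Ctrl it was 0.03 (adjusted p = 0.783).

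Krt19, the smallest keratin, which lacks most of the tail domain, had the largest log2 fold change among the tested keratins in Ep2 on the log2(FPKM + 1) scale, although the ratio of mean FPKM in Ep2 and Ctrl was 1.63 for Krt19 and 2.17 for the scarce Krt80. It stood at 170, 178 and 172 FPKM in Ctrl, 181, 135 and 139 in Ep1, and 324, 270 and 255 in Ep2. Of the Ep1 libraries, library 1 lay above Ctrl and the other two below it, and no Ep2 library came near either group. Relative to Ctrl, Krt19 was 0.70 higher in Ep2 with an SE of 0.12 (limma, adjusted p = 0.00127), and it was 0.90 higher in Ep2 than in Ep1 (limma, adjusted p = 0.000458). Ep1 with Ctrl gave −0.21 (adjusted p = 0.286). When single libraries or other settings were changed, the Ep2 with Ctrl value of Krt19 ranged from 0.59 to 0.77 and that of Krt18 from 0.31 to 0.44, and both calls stayed past the threshold.

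Vim did not pass the threshold in any comparison. It had 684, 687 and 658 FPKM in Ctrl, 719, 658 and 664 in Ep1, and 699, 732 and 764 in Ep2. The Ep2 libraries were above Ctrl by a narrow margin and overlapped with Ep1. The log2 fold change was 0.11 with an SE of 0.048 in Ep2 against Ctrl (limma, adjusted p = 0.077) and 0.01 in Ep1 against Ctrl (adjusted p = 0.941). After median centring of the libraries the former was 0.16 with an adjusted p of 0.0205.

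The scarce members are better read in fragments. Epcam, a homophilic adhesion molecule of epithelial cells, had 30, 31 and 34 fragments in Ctrl, 40, 27 and 23 in Ep1, and 79, 64 and 54 in Ep2. In FPKM these are 0.763 to 0.898, 0.607 to 1.06, and 1.59 to 2.03, and the Ep2 libraries were above the rest. The log2 fold change of Epcam in Ep2 was 0.61 against Ctrl with an SE of 0.11 (limma, adjusted p = 0.00154) and 0.61 against Ep1 (limma, adjusted p = 0.00209), while the ratio of the mean FPKM of Ep2 and Ctrl was 2.18. Only 1 library outside Ep2 reached 1 FPKM, so that Epcam entered the test through the group in which it was high and its call is no independent sign of a change. Cdh1, which encodes the E-cadherin of adherens junctions, had 2, 6 and 1 fragments in Ctrl, 1, 1 and 3 in Ep1, and 9, 4 and 6 in Ep2. The Ep1 libraries did not exceed the limit of 3 fragments that a count of 0 allows, and the Ep2 libraries lay above them but overlapped with Ctrl. Krt7 had 0 fragments in each of the 9 libraries, which allows up to 0.0218 to 0.0256 FPKM for counting error alone. Of 8 genes used by most cells, 0 were listed at 0 in any library.

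**Figure D2:**
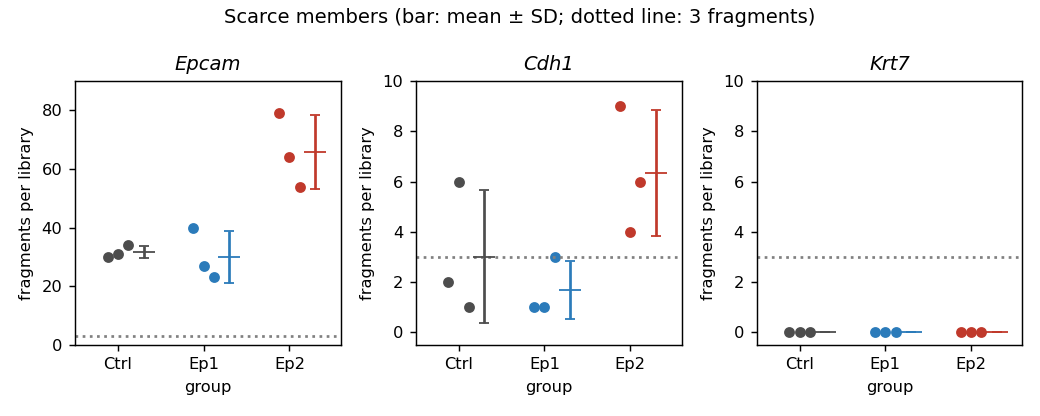
Fragments per library (vertical axes) for Epcam, Cdh1 and Krt7 in Ctrl, Ep1 and Ep2, with the mean ± SD of 3 libraries as a bar and a dotted line at 3 fragments. Epcam separates in Ep2 at 54 to 79 fragments, Cdh1 does not exceed 9, and Krt7 stays at 0.

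These counts of members have to be read against how much of the transcriptome moved. In Ep1 with Ctrl, 6.32% of 11727 tested genes were higher and 4.97% lower (adjusted p below 0.05), and 0 of the 5 tested members passed. In Ep2 with Ctrl, 23.9% of genes were higher and 29.3% lower, and 3 members were higher, namely Krt18, Krt19 and Epcam, and 0 lower. In Ep2 with Ep1, 18.8% of genes were higher and 25.2% lower, and 4 members were higher, Krt8 joining the 3 others. The median log2 fold change of the tested members was 0.37 in Ep2 with Ctrl and −0.0011 in Ep1 with Ctrl, where the medians of all tested genes were −0.03 and −0.01. These counts and medians include Epcam, which entered the test through Ep2, so that they lean upward in Ep2. The other tested members had 0.04 (Krt8), 0.11 (Vim), 0.37 (Krt18) and 0.70 (Krt19) in Ep2 with Ctrl. The 3 comparisons share their libraries in pairs. In bulk RNA a change in the number of cells that carry a transcript and a change in the RNA per cell cannot be told apart.

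The balance of type II and type I transcripts differed in its range between the groups. Krt8 divided by Krt18, both in FPKM, was 2.72, 2.70 and 2.68 in Ctrl, 2.39, 2.43 and 2.39 in Ep1, and 2.15, 2.09 and 2.22 in Ep2. No group overlapped another, and the ratio was lowest at the highest dose. The means were 2.70 ± 0.020, 2.40 ± 0.025 and 2.15 ± 0.067 (SD, n = 3). An exact two-sided permutation test gave p = 0.1 in each of the 3 comparisons. Any 3 libraries against 3 whose ranges do not overlap give this value, the smallest possible, so that the test could not pass the threshold. Krt19 divided by Krt18 went both ways, with 0.728 to 0.737 in Ctrl, 0.570 to 0.713 in Ep1 and 0.869 to 0.974 in Ep2, and the exact p was again 0.1 in each. Over these 6 comparisons the adjusted p was 0.1 throughout. With both type I chains in the denominator, Krt8 over the sum of Krt18 and Krt19 was 1.55 to 1.57 in Ctrl, 1.39 to 1.55 in Ep1 and 1.09 to 1.16 in Ep2. The ratio was noticed in these data, so that the p-values only restate the separation of the groups, and nothing is concluded from them. The ratio compares transcripts per length, not protein.

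**Figure D3:**
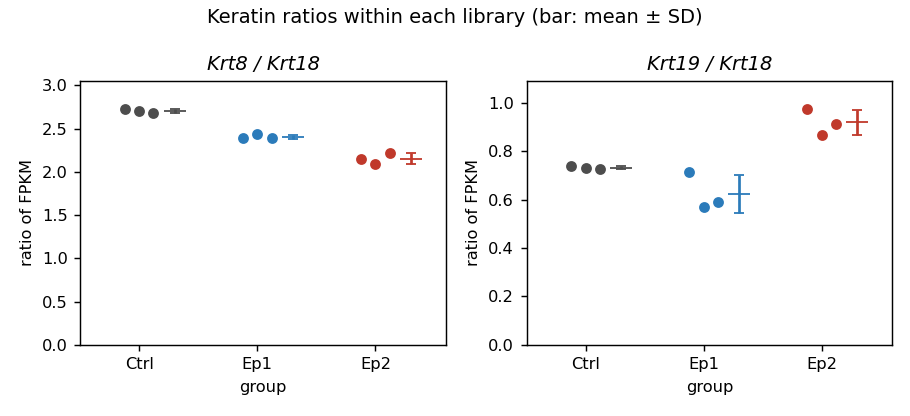
Ratio of FPKM within each library for Krt8 over Krt18 (left) and Krt19 over Krt18 (right), by group, with the mean ± SD of 3 libraries as a bar and axes from 0. The left ratio steps down from 2.70 to 2.40 to 2.15, and the right one is lowest in Ep1 and highest in Ep2.

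Within a group the levels of the keratins varied together from library to library. After the group means were subtracted, the Pearson correlation over the 9 libraries was 0.95 for Krt8 and Krt18, 0.86 for Krt8 and Krt19, and 0.83 for Krt18 and Krt19. This was not particular to keratins, since Epcam gave 0.79 with Krt8, 0.73 with Krt18 and 0.87 with Krt19. Vim gave −0.23 with Krt8, −0.26 with Krt18 and 0.19 with Krt19. The points share libraries and their depth, and these values are a description. Library Ep2 1 had the highest Krt8, Krt18, Krt19 and Epcam of all libraries. Endothelial markers, described below, went both ways in it. Ly6a was the lowest of all libraries, at 107 FPKM against 111 to 134 in the others. Flt1 was the highest, at 11.7 FPKM against 6.66 to 10.6. Library Ep2 1 also differed most from its group. The chi-square of fragments over genes, divided by its degrees of freedom, was 9.16 and 13.8 to the other Ep2 libraries and 2.70 to 5.25 within the remaining pairs. Its part in the results was not tested beyond leaving it out, when the log2 fold change of Krt8 in Ep2 with Ctrl was −0.014 in place of 0.044, that of Krt18 was 0.31, that of Krt19 0.59 and that of Epcam 0.54, the last 3 still past the threshold. Transcripts whose log2 level followed a member most closely over the 9 libraries, among 5023 tested genes of at least 10 FPKM, were Trim41 for Krt8 (r = 0.98), Pdxdc1 for Krt18 (r = 0.99), 5031439G07Rik for Krt19 (r = 0.99), P4hb for Epcam (r = 0.99) and Ubqln2 for Vim (r = 0.98).

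Beyond these members, the keratin family was scarce. Of 54 listed keratin genes, 27 on chromosome 11 and 27 on chromosome 15, 24 had no fragment in any library, 20 had fragments but too few to be tested, and 10 were tested. Krt8, Krt18 and Krt19 made up 97.0 to 98.2% of the summed FPKM of the family, and 4 keratins had a mean above 10 FPKM, the fourth being Krt13. Among the 10 tested keratins, 0 passed in Ep1 with Ctrl, while 3 were higher and 2 lower in Ep2 with Ctrl, and 5 were higher and 1 lower in Ep2 with Ep1. Over all tested genes, 6.32% were higher and 4.97% lower in Ep1 with Ctrl. The shares were 23.9% and 29.3% in Ep2 with Ctrl, and 18.8% and 25.2% in Ep2 with Ep1. The family's counts against Ctrl thus lie near the background. Krt13, a type I keratin of moist stratified epithelia, fell from 14.6 ± 1.02 to 11.3 ± 1.86 FPKM (SD, n = 3) in Ep2 (log2 fold change −0.36, limma, adjusted p = 0.0179). Krt76, a type II keratin of the palate and gums, fell from 8.11 ± 0.392 to 5.54 ± 0.75 FPKM (−0.48, adjusted p = 0.000676). Krt80, a type II keratin found beside desmosomes, had 0.977 ± 0.069 FPKM in Ctrl and 2.12 ± 0.293 in Ep2 (0.65, adjusted p = 0.000621), and like Epcam it entered the test through Ep2. Krt20, a keratin of gut epithelium, was at 0.837 FPKM in Ep1 and 1.39 in Ep2 (0.37, adjusted p = 0.0355), and it too entered the test mainly through Ep2, since 1 other library reached 1 FPKM. Krt10, Krt16 and Krt27 passed in none of the comparisons.

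Linkers and other partners of keratin filaments were present and partly moved. Not all of the listed genes tie filaments to junctions, so that the counts are those of a mixed list. Of 17 genes in this list, 13 were tested, and in Ep2 with Ctrl 7 were higher and 3 lower, beside 23.9% and 29.3% of all tested genes. The largest rises were those of Pkp3, a desmosomal plakophilin, from 2.78 ± 0.257 to 5.00 ± 0.682 FPKM (log2 fold change 0.66, limma, adjusted p = 0.000446), of Dsp, the desmoplakin that holds the filaments at the desmosome, from 6.07 ± 0.152 to 9.61 ± 1.05 (0.58, adjusted p = 0.000276), and of Fam83h, which arranges the keratin network, from 8.57 ± 0.564 to 12.7 ± 2.63 (0.50, adjusted p = 0.00566). The 2 most abundant genes of the list fell. Plec, the cytolinker plectin, went from 81.6 ± 3.0 to 66.2 ± 3.0 FPKM (−0.30, adjusted p = 0.000451), and Krtcap2, which despite its name is a subunit of the oligosaccharyltransferase, went from 84.1 ± 2.22 to 70.2 ± 3.99 (−0.26, adjusted p = 0.00308). Jup, encoding plakoglobin, was at 22.4 and 23.9 FPKM (0.09, adjusted p = 0.18). In Ep1 with Ctrl, Plec was the 1 gene of the list past the threshold, at −0.26 on the log2 scale (limma, adjusted p = 0.0117). Over all tested genes, 6.32% were higher and 4.97% lower in that comparison, so that this count lies near the background. Without library Ctrl 2 or Ep1 3 no gene of the list passed.

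**Figure D4:**
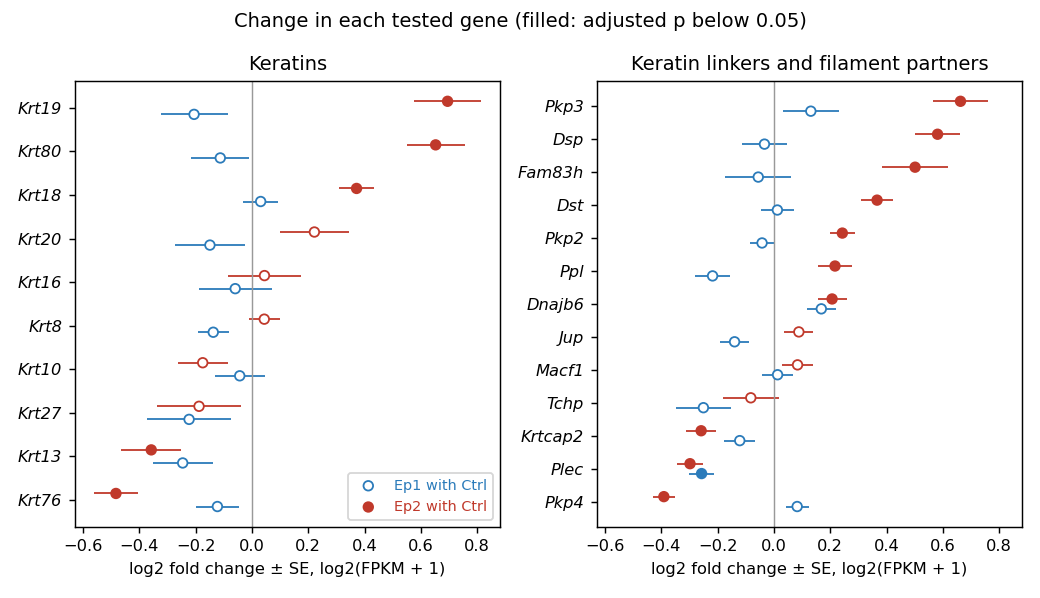
Log2 fold change ± SE on the log2(FPKM + 1) scale (horizontal axes) for the 10 tested keratins (left) and the 13 tested linkers and filament partners (right), Ep1 with Ctrl in blue and Ep2 with Ctrl in red, filled where the adjusted p is below 0.05. Among keratins Krt19 stands highest at 0.70 and Krt76 lowest at −0.48 in Ep2, and no keratin is filled in Ep1.

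Among the filament genes other than keratins, 9 of 16 were tested, Vim included, and in Ep2 with Ctrl 1 was higher and 3 lower, near the 23.9% and 29.3% of all tested genes for the lower ones. The 3 were the lamins, which line the nuclear envelope. Lmnb2 fell from 13.4 ± 0.494 to 6.41 ± 0.288 FPKM (log2 fold change −0.96, limma, adjusted p = 3.4e-06), Lmnb1 from 101 ± 2.70 to 67.7 ± 1.61 (−0.57, adjusted p = 9.68e-06) and Lmna from 278 ± 10.6 to 220 ± 13.3 (−0.34, adjusted p = 0.000385). In Ep1 with Ctrl, Lmnb2 was the 1 gene of this list that passed, at −0.27 (limma, adjusted p = 0.0185). This count lies near the 6.32% higher and 4.97% lower of all tested genes. The call of Lmnb2 was lost without a filter and without any 1 of the libraries Ctrl 1, Ctrl 2, Ep1 1 and Ep1 3.

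The epithelial surface programme that usually goes with these keratins was barely detected. Of 25 adhesion and polarity genes, 22 stayed below 1 FPKM in each library and 3 were tested. The summed FPKM of the list was 7.81 to 8.15 in Ctrl, 6.86 to 7.61 in Ep1 and 8.82 to 9.69 in Ep2. Spint1, a membrane protease inhibitor, was the most abundant, at 3.66 ± 0.105 FPKM in Ctrl and 3.05 ± 0.0869 in Ep1 (log2 fold change −0.20, limma, adjusted p = 0.0395), and 3.26 ± 0.12 in Ep2 (−0.13, adjusted p = 0.0644). Its call in Ep1 was lost without a filter, with the replicate block, with voom and when any 1 library of Ctrl or Ep1 was left out. Ocln, the occludin of tight junctions, had 1.33 FPKM in Ctrl and 1.48 in Ep2 (adjusted p = 0.367). In Ep2 with Ctrl, Epcam was the 1 gene of the 3 past the threshold, beside 23.9% higher and 29.3% lower of all tested genes. As said above, Epcam entered the test through Ep2.

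Of 12 transcription and splicing factors of epithelia, 3 were tested. Klf5, a zinc finger factor of proliferating epithelium, rose at both doses, from 5.59 ± 0.0707 FPKM in Ctrl to 8.81 ± 1.03 in Ep1 (log2 fold change 0.57, limma, adjusted p = 0.00924) and 12.5 ± 1.46 in Ep2 (1.03, adjusted p = 2.13e-05). Grhl2, a grainyhead factor that acts on Cdh1 and other junction genes, was at 1.18 ± 0.0974 in Ctrl and 1.95 ± 0.0735 in Ep2 (0.44, adjusted p = 0.000923). Elf3 had 1.95 FPKM in Ctrl and 1.77 in Ep2 (limma, adjusted p = 0.459). Thus 2 of these 3 factors were higher in Ep2 with Ctrl and 0 lower, beside 23.9% and 29.3% of all tested genes. The factors of the opposite programme, epithelial-mesenchymal transition, were all tested, and 2 of 6 were higher in Ep2 with 0 lower, beside 23.9% and 29.3% of all tested genes. Zeb2, a repressor of Cdh1, went from 2.38 ± 0.212 to 4.0 ± 0.586 FPKM (0.56, adjusted p = 0.00097) and Snai2, another such repressor, from 1.94 ± 0.0978 to 2.54 ± 0.175 (0.27, adjusted p = 0.0113). Twist1 at 27.8 FPKM and Snai1 at 22.4 FPKM in Ctrl, the most abundant of the 6, did not pass in Ep2 with Ctrl.

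The label of brain microvessel endothelium was checked against its markers. Of 21 endothelial genes, 14 stayed below 1 FPKM in each library, and Sox17, Emcn, Robo4 and Erg had no fragment. Cdh5, the VE-cadherin, did not exceed 1.09 FPKM, Pecam1 did not exceed 0.242 and Kdr did not exceed 0.0594. The list was carried by Ly6a, at 122 ± 3.09 FPKM in Ctrl, and Ly6c1, at 59.4 ± 2.05, surface antigens that other cells share. Flt1, a receptor of VEGF, was at 6.90 ± 0.206 FPKM in Ctrl and rose to 10.9 ± 0.732 in Ep2 (log2 fold change 0.59, limma, adjusted p = 9.67e-05), and Plvap, of the diaphragms of fenestrae, had 0.831 ± 0.180 FPKM in Ctrl and 1.5 ± 0.324 in Ep2 (0.44, adjusted p = 0.0136), and it entered the test through Ep2. The data thus go against the label for most of the listed endothelial genes. The summed FPKM of the list was 174 to 231 over all libraries, below the level of Krt8 alone, which was 562 to 714. Flt1 and Plvap were the 2 of 6 tested endothelial genes past the threshold in Ep2 with Ctrl. Over all tested genes, 23.9% were higher and 29.3% lower.

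Markers of other cells were low or mixed. Of 18 mesenchymal and mural genes, 5 were tested, led by Col3a1 at 35.3 FPKM and Fn1 at 24.0 FPKM in Ctrl, and Postn, Kcnj8 and Thy1 had no fragment. Of that list S100a4 fell in Ep2, from 8.42 ± 1.21 to 4.95 ± 0.101 FPKM (log2 fold change −0.66, limma, adjusted p = 0.00415). It was the 1 gene of the 5 past the threshold in Ep2 with Ctrl, beside 23.9% higher and 29.3% lower of all tested genes. The 8 blood cell markers summed to at most 0.206 FPKM and the 10 neural and glial markers to 0.867 to 2.12 FPKM, highest in Ep2. The part of any of these cells in the keratin values was not tested.

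**Figure D5:**
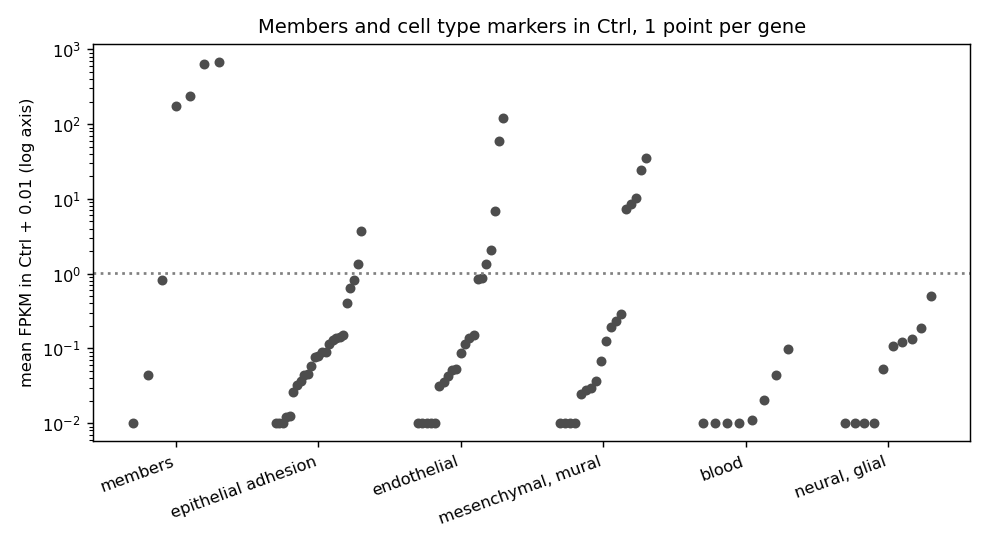
Mean FPKM of 3 Ctrl libraries plus 0.01 (vertical log axis), 1 point per gene, for the members and for lists of epithelial adhesion, endothelial, mesenchymal and mural, blood, and neural and glial markers, with a dotted line at 1 FPKM. Vim, Krt8, Krt18 and Krt19 lie between 174 and 677 FPKM, above every point of the other lists, whose highest is Ly6a at 122.

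Near-identical copies can share fragments with a gene. Krt8 matched the processed pseudogene Krt8-ps at 98.6% over 941 bases, and this copy was listed at a mean of 1.90 FPKM and at most 2.96, against 628 for Krt8. It also matched the noncoding gene Gm36026 at 100% over 102 bases, which was listed at a mean of 0.742 FPKM. Krt18 matched the pseudogene Gm5200 at 90.2% over 1269 bases, which was listed at 0. Krt19 and Vim each matched 1 gene that was not listed in the table, and Epcam matched none at 90% identity over at least 100 bases. Copies of Krt7 and Cdh1 were not sought.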

How the data were processed

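RNA of 9 libraries was sequenced in pairs of reads, and the groups follow the library names. The authors aligned the reads and deposited FPKM values, that is fragments scaled to library size and gene length, for 54532 genes. The tool that counted the reads is not given in the sources used here. The submitters' processing notes name Bowtie 0.12.2 and the build mm8, the methods name GRCm39, and 99.9% of 36523 listed genes overlapped GRCm38 positions, which are used here. The product of FPKM and gene length was a multiple of 1 step per library for 100% of values (within 0.05 of a whole number), which returned the fragments.

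Genes with at least 1 FPKM in at least 3 libraries (11727) were compared as log2(FPKM + 1) by limma, with all 9 libraries in the model, no covariate, and eBayes run with its trend and robust options, with Benjamini-Hochberg adjustment within each comparison and a threshold of 0.05. A fold change on this scale understates that of low genes. The procedure was tested on simulated data. Alternatives were median centring, rescaling to the same total (for levels), no filter, a filter of 5 FPKM, a replicate block, a pseudocount of 0.1, a model restricted to the 2 groups at hand, voom on the recovered fragments and the omission of each library. Copies were sought with blastn in GENCODE M39 transcripts. Promoters came from RefSeq (GRCm38.p6).

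The members and the gene lists were chosen with earlier results of these data known. Genes named are the members, the tested keratins, the 3 most abundant and the 3 most changed genes (Ep2 with Ctrl) of each list, and the transcripts most like a member. Other names, such as endothelial markers at or near 0, were chosen after their values were seen. The tests ran in limma 3.58.1 under R 4.3.3, the searches in blastn 2.17.0, and the remaining steps in Python 3.11.15 with scipy 1.17.1, pandas 2.3.3, numpy 2.4.6 and matplotlib 3.10.9.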

Additional observations from a re-analysis of the deposited data

How the results depend on the processing

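The calls of Krt18, Krt19 and Epcam in Ep2 with Ctrl and in Ep2 with Ep1 kept their direction and their side of the threshold under each alternative run, except that Epcam was not tested under the filter of 5 FPKM. Epcam entered the test through Ep2, so that its calls and its part in the member counts below are no independent sign of a change. In Ep1 with Ctrl, 0 members passed, and Krt8 alone passed when only the 2 groups were fitted (1 member, adjusted p = 0.0442) and with voom (1 member, −0.15, adjusted p = 0.0365). Over all genes that comparison gave 1324 calls, 396 without a filter, 2162 with only the 2 groups, 1995 with voom, and 191 to 1034 when 1 library was left out (at most 842 without Ctrl 1, Ctrl 2, Ep1 1, Ep1 2 or Ep1 3). Leaving out 1 library gave 0 members in Ep1 with Ctrl, 3 to 4 in Ep2 with Ctrl and 3 to 5 in Ep2 with Ep1. The call of Krt8 in Ep2 with Ep1 was also lost without a filter (adjusted p = 0.059) and with only the 2 groups (0.053). Vim passed in Ep2 with Ctrl and in Ep2 with Ep1 after median centring (adjusted p = 0.0205 and 0.0231), with voom (0.00965 and 0.0076) and without library Ep2 1 (0.0302 and 0.0439), and in the latter without Ep1 1 (0.0411). Signs turned, none past the threshold, for Vim in Ep1 with Ctrl after median centring (−0.0023) and with voom (−0.010), and, when 1 library was left out, for Vim there (−0.034 to 0.030, negative without Ctrl 3 or Ep1 1), for Epcam there (−0.095 to 0.085, positive without Ctrl 3, Ep1 2 or Ep1 3), for Krt18 there (−0.0030 to 0.051, negative without Ep1 1) and for Krt8 in Ep2 with Ctrl (−0.014 to 0.089, negative without Ep2 1). The cause was not tested. Calls over all genes in Ep2 with Ctrl were 2800 higher and 3436 lower, but 3311 and 2971 after median centring and 3565 and 3484 with voom. Those in Ep2 with Ep1 were 2206 higher and 2950 lower, but 2974 higher and 2383 lower after median centring, and 3107 higher and 2774 lower with voom.

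Whether same-numbered libraries of different groups were paired is not stated. The correlation of their deviations ran from −0.056 to 0.074, and that of differently numbered libraries from −0.108 to 0.153. These values cannot exclude a shared batch, since the deviations are taken from means of 3 libraries. With a replicate block the members past the threshold were 0, 3 and 4 in the 3 comparisons, as without the pairing, and 1051, 6110 and 4983 of all genes were called. Depth limits Cdh1 and Krt7, for which a change of a few fragments could not be detected.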
